A study of Anguilla anguilla and Anguilla rostrata with 84 samples.

Results

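Of the 992 contigs on an eel liver array, 57 had their largest departure among the laboratory treatments in fish kept at low temperature, and that departure was downwards. A contig is an assembled transcript sequence that stands for an expressed gene. The departure of a group is its mean log2 ratio minus the mean of the 9 treatment means, computed without the control and without wild fish. Before that, the 60 contigs with the largest median SD between fish of a group, over all 17 groups, and the 200 that changed least between treatments had been dropped, which left 732 contigs. The members were thus chosen by the measured treatment means themselves. Low temperature was also the extreme group of 68 contigs that were highest in it.

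Each array compared liver RNA of 1 fish, labelled with Cy3, with a Cy5-labelled pool of RNA from 30 wild eels of Certes, France, so every value below is log2 of fish over pool. The laboratory fish were European eels (Anguilla anguilla). One treatment was cold water, at 13 degrees C. Contaminated food carried either methylmercury (5 ug per g, by dry weight), organochlorine pesticides (13 ng per g) or polychlorinated biphenyls, called PCB here, at doses of 50 and 300 ng per g. Dissolved cadmium was given at 0.4 and 4 ug/L. The last treatments were a salinity of 18 per mil and a diet restricted to 2.5% of body weight, which makes 9 in all. Wild American eels (Anguilla rostrata) came from 4 Canadian sites, the lakes St Pierre and St François and the rivers St Jean and Sud-Ouest. Wild European eels came from 3 French sites, the Gironde estuary and the rivers Garonne and Dordogne, and a laboratory control completed the 17 groups. The sites had been chosen along a gradient of metal and organic contamination, and the sources used here state no temperature for the control. The higher PCB dose had 4 fish and every other group 5. No age is stated for any group.

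An eel is an ectotherm, so its liver works at the temperature of the water. Cooling slows enzyme reactions and stiffens membranes, and fish livers are known to answer with altered transcription of genes of lipid desaturation, protein synthesis, energy metabolism and RNA handling. The liver also makes most plasma proteins and clears foreign compounds. The files give contigs by identifier only, and 0 of the 992 identifiers matched the RefSeq gene table of the European eel, so no gene name, function or sequence can be set beside the values. The tissue could not be checked against liver markers for the same reason. In bulk liver RNA, fewer cells of a type and less RNA per cell cannot be told apart.

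Several arrays qualify the results. The raw columns of control fish 5 were identical to those of high salinity fish 4, and those of fish 1 at 4 ug/L cadmium to those of fish 4 at 0.4 ug/L, so control fish 5 and this cadmium fish were left out. Low temperature fish 4 correlated at -0.56 to -0.49 across all contigs with the remaining low temperature fish, while those were correlated among themselves at 0.41 to 0.66. Which way this array runs is unsettled, although all samples carry the same dye labels, and it was left out when the contigs were chosen. Both channels exceeded background for 939 to 972 contigs on the 4 low temperature arrays used, 893 to 989 on Canadian, 759 to 992 on French, 377 to 990 on the other treatment arrays and 599 to 842 on the 4 control arrays.

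The low temperature values that chose the contigs are given as a description. The 57 differences from the treatment mean ran from -1.004 to -0.27, with a median of -0.46. In single fish the median over the 57 contigs was -0.36, -0.38, -0.57 and -0.59 in low temperature fish 1, 2, 3 and 5, with 52, 52, 56 and 56 of the 57 contigs below the treatment mean. Over the 38 fish of the other 8 treatments the same median ran from -0.25 to 0.29 (median 0.06), above every one of these 4 fish.

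contig_36254 had the most negative difference (-1.004). Its log2 ratio was -1.58, -1.37, -1.97 and -1.51 in low temperature fish 1, 2, 3 and 5, against -0.57, 0.13, -0.05 and -0.41 in the 4 control fish. All 4 low temperature fish lay below all 4 control fish, and the means were -1.61 ± 0.25 and -0.23 ± 0.32 (SD, n = 4 each). Over the 38 fish of the other 8 treatments contig_36254 ran from -1.40 to 0.40 (median -0.39), and the lowest of these lay below low temperature fish 2. contig_10692 came next (-0.98), at 0.22, 0.62, 0.33 and 0.26 in low temperature fish, against 1.30, 1.62, 1.26 and 1.68 in control fish, again without overlap. In the other 8 treatments contig_10692 ranged widely, from -1.003 to 3.03 over 38 fish (median 1.51), so single fish of other treatments reached lower than low temperature fish. contig_3175 was -1.05, -1.27, -0.80 and -1.49 in low temperature fish and -0.44, -0.15, 0.75 and -0.32 in control fish. Both its channels were above background on 4 of 4 low temperature arrays but on only 1 of 4 control arrays, so its control level was measured on 1 array. In the other 8 treatments, whose means entered the rule, both its channels were above background on 23 of 38 arrays. Its difference of low temperature from control was only -0.0061 in the authors' processed values.

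Some contigs lay close to the limits of the rule. contig_2232 was kept with low temperature at -0.42 and 0.4 ug/L cadmium at 0.42, a margin of 0.0018, while contig_19103 stayed out at -0.25, with pesticides at -0.26. The median margin over the next treatment was 0.10 and the largest 0.43. The smallest departure among the 57 was 0.275 (contig_26556). The largest departure dropped as small was 0.254, that of contig_28030 at 4 ug/L cadmium, whose low temperature difference was only -0.07. The most variable of the 57, contig_18150, had a median within-group SD of 0.425, and contig_14643, whose low temperature difference was -0.61, was dropped at 0.454. The limit on variability removed 3 contigs that would otherwise have counted and the limit on small departures removed 13.

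Low temperature being lowest, the average of the other 8 treatments had to lie above the treatment mean. No single one of them had to, and they differed. Cadmium held the highest of the 9 treatment means for 29 contigs, 16 at 0.4 ug/L and 13 at 4 ug/L. The restricted diet was highest for 12, high salinity for 7, PCB for 2 at 50 ng/g and 6 at 300 ng/g, methylmercury for 1 and pesticides for 0. No share over all contigs is given for these counts of highest means. The group median over the 57 contigs was 0.17 and 0.24 at the lower and higher cadmium dose, 0.15 on the restricted diet and 0.08 at high salinity. It was near 0 for PCB (-0.02 at 50 ng/g and 0.04 at 300 ng/g), -0.08 for pesticides and -0.13 for methylmercury. Under methylmercury 45 of the 57 contigs lay below the treatment mean, beside 49.1% of all contigs. Over all contigs the medians of these 8 groups ran from -0.0094 (restricted diet) to 0.01 (PCB at 300 ng/g). These values also entered the rule and carry no test.

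**Figure D1:**
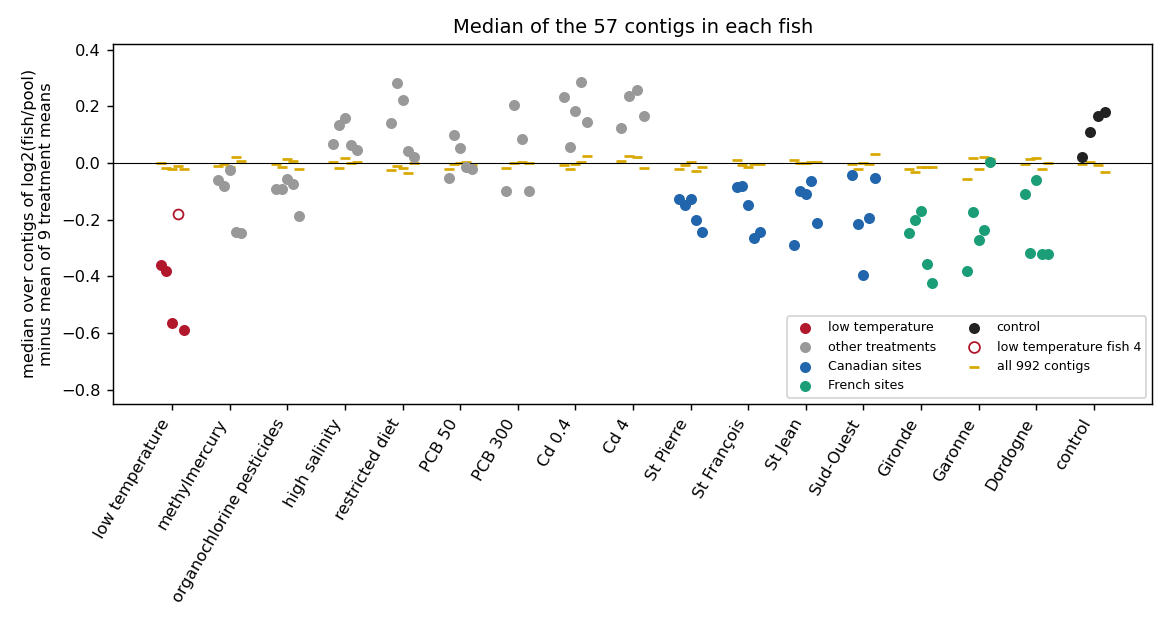
Each point is the median over the 57 contigs in 1 fish, as log2 ratio minus the mean of the 9 treatment means, by group; bars mark the same median over all 992 contigs, and the open circle is low temperature fish 4, which the rule did not use. The 4 low temperature fish that were used lie between -0.59 and -0.36, the wild fish between -0.42 and 0.0044 and the 4 control fish between 0.02 and 0.18.

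**Figure D2:**
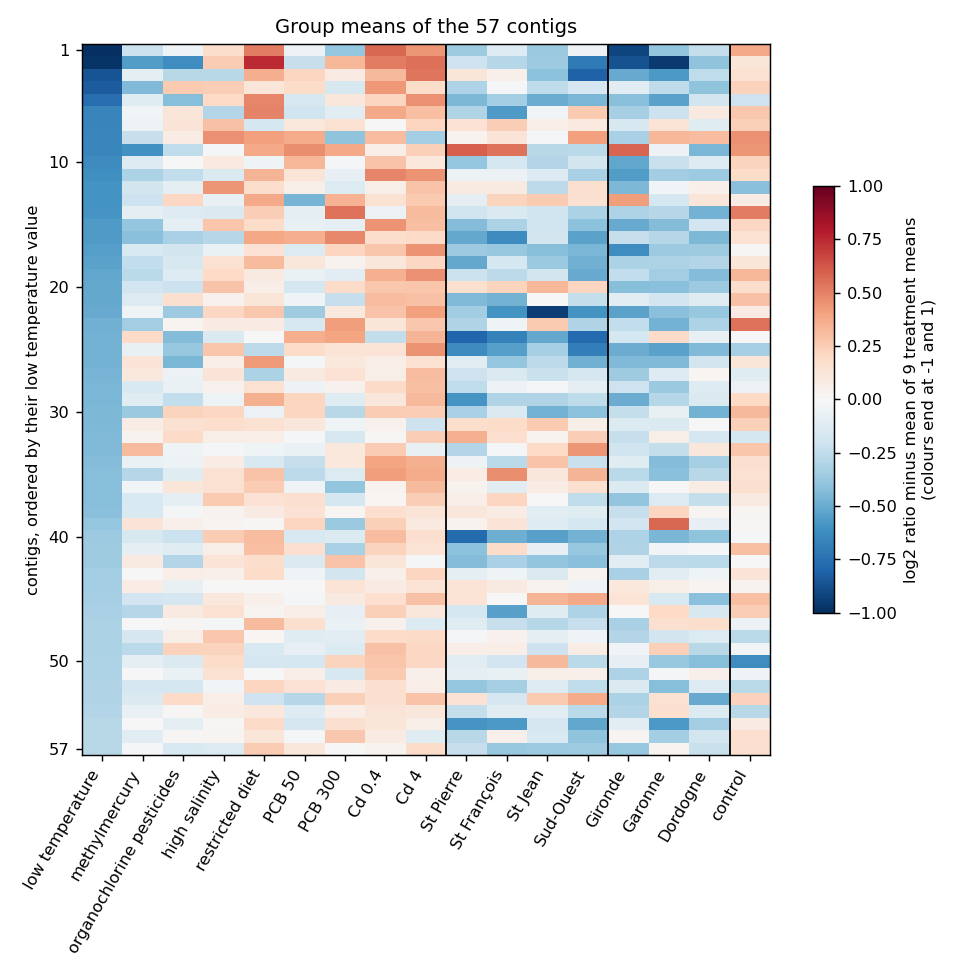
Each row is 1 of the 57 contigs, ordered by its low temperature value, and each column is a group mean minus the mean of the 9 treatment means (log2, blue low and red high, colours ending at -1 and 1). The low temperature column is blue throughout because the rule required it. Blue also prevails at all wild sites, from 38 contigs below 0 at St François to 52 in the Gironde. It prevails too under methylmercury, with 45 below 0, and pesticides, with 37. Red dominates the columns of 0.4 and 4 ug/L cadmium, with 55 and 51 above 0. It also prevails on the restricted diet, with 44 above 0, at high salinity, with 42, and in the control, with 42. Over all contigs, 47.6% (PCB at 300 ng/g) to 52.2% (restricted diet) lay below 0 in each group.

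In the fish that the rule left out, the median of these contigs was below that of the array in either orientation, with wide scatter between contigs. Because this held in both orientations, it cannot show whether the fish followed its group. In low temperature fish 4 the median over the 57 contigs was -0.18 against the treatment mean, and 33 of the 57 lay below it, beside a median of -0.01 and 50.6% over all 992 contigs. With the sign of this array turned, the median was -0.25 and 41 of the 57 lay below, beside -0.04 and 54.5% over all contigs. Single contigs departed far in either direction in the deposited orientation, from -2.01 for contig_10692 to 2.35 for contig_14369. The log2 ratio of contig_36254 was 1.27 in this fish, on the other side of 0 from the 4 fish that chose it. With 1 fish of unsettled direction there is no test.

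The control was outside the difference that chose the contigs, but the low temperature fish were not. The comparison of low temperature with control is therefore also a description. The rule picked contigs by low values in low temperature fish, which raises the counts of lower contigs given here. The excess of such counts over the array therefore tests nothing. The low temperature mean lay below the control mean for 56 of the 57 contigs, with a median difference of -0.58 in log2, beside 0.02 over all 992 contigs. All 4 low temperature fish lay below all 4 control fish for 25 of the 57, where 9.07% of all contigs did so. In a limma fit on 46 laboratory fish, with Benjamini-Hochberg adjustment over all contigs and a threshold of 0.05, 23 of the 57 passed as lower and 0 as higher, beside 4.13% lower and 4.94% higher over the array (9.07% in either direction). This count fell to 10 without control fish 4, 15 without control fish 3, 13 without low temperature fish 3 and 9 without low temperature fish 5. It was 12 after median centring, 14 with no background subtraction, where the median difference was -0.30, and 6 in the authors' processed values.

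Wild fish and the control were both outside the difference that chose the contigs, so the direction of their difference can be tested. Their spread between fish did enter the limit on variability, so the set is not wholly independent of them. The shares over all contigs given beside the 57 still include the contigs that this limit and the limit on small departures removed. What this does to the excess was not tested. Wild European eels were lower than the laboratory control on many of the 57 contigs. In a fit on all 82 fish, 15 of the 57 were lower in French fish and 0 were higher, which is 26.3% of them, while 7.96% of all contigs were lower and 12.3% higher (20.3% in either direction). The mean of French fish lay below that of the control for 46 of the 57, and the median difference was -0.37, beside 47.5% and 0.02 over all 992 contigs. The 15 differences ran from -0.90 to -0.43, with adjusted p in limma from 7.1e-06 to 0.0486.

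contig_36254 was lowest by this measure, at -1.73 to -0.26 in 15 French fish (median -1.12), against -0.57 to 0.13 in 4 control fish. The difference was -0.90 (SE 0.27, adjusted p = 0.0148). Every French fish lay below the control mean, although the ranges overlapped. contig_30327 was -0.20 to 0.94 in French fish (median 0.29), against 0.76, 0.93, 1.38 and 1.54 in control fish. It differed by -0.88 (SE 0.18, adjusted p = 0.000394), and its low temperature fish stood at 0.50, -0.05, -0.13 and 0.20. contig_10692 averaged 0.59 ± 0.47 in French fish (SD, n = 15) and 1.46 ± 0.21 in the control (SD, n = 4), a difference of -0.87 (SE 0.28, adjusted p = 0.0218). The lowest of these French values, -0.24 in Garonne fish 5, was not above background in both channels. All 15 French fish lay below all 4 control fish for only 1 of the 57 contigs, where 1.21% of all contigs did so.

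The count depended on single fish. It fell to 6, 5 and 6 without control fish 2, 3 or 4 in turn and to 9 without Gironde fish 5, and the call of contig_36254 was lost without control fish 2 or 3 (adjusted p = 0.0653 and 0.0597). Scaling between arrays left 6, no background subtraction left 8 lower and 1 higher with a median difference of -0.20, and the authors' processed values gave 11 lower and 4 higher. French arrays had 759 to 992 contigs above background and control arrays 599 to 842. Of the 37 contigs above background in both channels on all 19 French and control arrays, 32 were lower in French fish, with a median difference of -0.43, and 13 passed, beside a median of -0.06 and 11.4% passing as lower among the 458 such contigs of the array. Of the other 20 contigs 14 were lower, with a median of -0.17, and 2 passed, beside a median of 0.05 and 5.06% passing as lower among the other 534 contigs of the array. Wild and laboratory fish also differed in origin, food and handling, and these cannot be told apart.

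**Figure D3:**
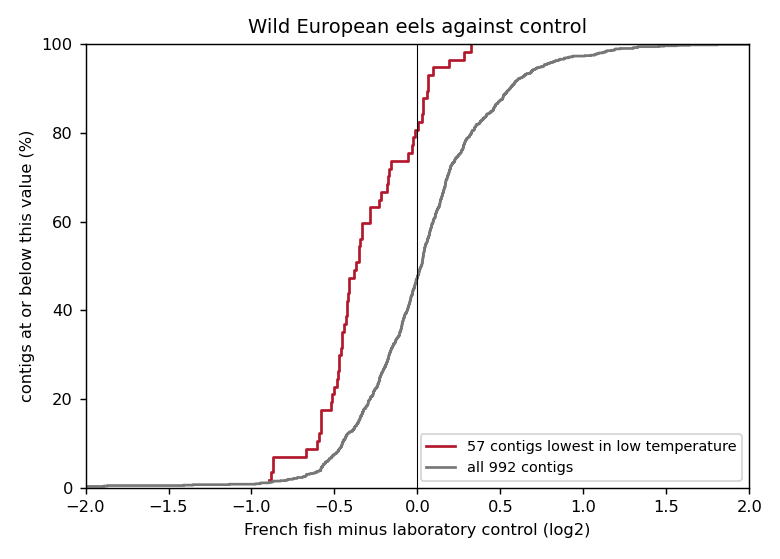
Cumulative share of contigs (%) by the difference of the French mean from the laboratory control mean (log2), for the 57 contigs (red) and for all 992 (grey). The red line lies left of the grey one, with 80.7% of the 57 contigs below 0 against 47.5% of all.

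Wild American eels, compared with the same 4 control fish after the data had been seen, were lower on 15 of the 57 contigs and higher on 2, beside 9.17% and 12.2% of all contigs (21.4% in either direction). All 20 American fish lay below all 4 control fish for 1 of the 57, where 1.01% of all contigs did so. Their mean lay below the control for 46 of the 57, with a median difference of -0.29, beside 48.7% and 0.01 over all contigs. The count of 17 fell to 6 without control fish 3 and to 10 without control fish 4. It was 6 after median centring, 8 with no background subtraction, where the median difference was -0.15, and 8 after scaling between arrays. Canadian arrays had 893 to 989 contigs above background and control arrays 599 to 842, without overlap. The comparison of American eels with the control was not split by detection. Because the control fish are shared, the results of both wild arms and of low temperature against the control are not independent of each other. Compared with the treatment mean, all 7 site means lay lower for 23 of the 57 contigs, where 16.4% of all contigs did so. The treatment mean entered the rule, so this count is a description. The group median over the 57 contigs was -0.21 at St Pierre, -0.13 at St François, -0.15 at St Jean, -0.25 at Sud-Ouest, -0.29 in the Gironde, -0.22 in the Garonne and -0.18 in the Dordogne.

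Low temperature had the lowest mean of all 17 groups for 34 of the 57 contigs (59.6%), where it did so for 6.45% of all contigs. The low temperature mean entered the rule, so this is a description. Of the remaining 23, a wild site was lowest for 22 and the control for 1. St Pierre was lowest for 6 of these and the Gironde for 5.

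American eels differed from European eels at 4 of the 57, 3 higher and 1 lower. Of all contigs 1.41% were higher and 2.12% lower, or 3.53% in either direction, so the count is a matter of a few contigs. An unadjusted p under 0.05 in limma was found for 17 of the 57, beside 17.0% of all contigs. contig_35480 was higher in American eels, at -0.07 to 1.07 in 20 fish (median 0.34), against -0.80 to 0.44 in 15 French fish (median -0.26). It differed by 0.64 (SE 0.12, adjusted p = 0.00124), and its 4 low temperature fish, at -0.42 to -0.25, lay within the French range and below every American fish. contig_38699 was lower in American eels, at -0.50 to 0.34 (median 0.01), against -0.39 to 1.68 in French fish (median 0.60), a difference of -0.67 (SE 0.13, adjusted p = 0.00228 in limma). The highest French value, 1.68 in Garonne fish 4, was not above background in both channels, and without this fish the difference was -0.60 (adjusted p = 0.00429 in limma). Median centring in place of loess raised the count to 14 and lost the call of contig_38699 (-0.25, adjusted p = 0.379), while without Gironde fish 4 the count was 2. Species, country and the sites themselves cannot be told apart here, nor can sequence differences between the species on an array probe. As for all site comparisons, the SE and p-values rest on the spread between fish within sites. They do not measure the spread between sites of a species.

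Fish of the 2 Canadian lakes were higher than fish of the 2 Canadian rivers at 2 of the 57 contigs, contig_17161 and contig_35673, beside 0.907% of all contigs higher and 0.706% lower (1.61% in either direction). contig_17161 was -0.04 to 1.96 in 10 lake fish (median 0.49), against -0.62 to 0.28 in 10 river fish (median -0.16), and differed by 0.84 (SE 0.22, adjusted p = 0.0327). Its ranges overlapped, and lake fish spread more widely (SD 0.70) than river fish (SD 0.27). The SE rests on the spread between fish within sites, not between sites. With 2 lakes and 2 rivers, the type of water cannot be told apart from the single sites. The call was lost when St Jean fish 3, Sud-Ouest fish 3 or 5, St Pierre fish 1 or 5, or St François fish 1 or 2 was left out (0.68 to 0.82, adjusted p = 0.053 to 0.0711) and when only these 4 sites were fitted (adjusted p = 0.0913), where limma called 0 of the 57 and 7 had an unadjusted p under 0.05. The count was 1 with no background subtraction and 1 after scaling between arrays. No contig passed (0 of the 57 in limma, 6 or 7 at an unadjusted p under 0.05) without St François fish 1 or St Pierre fish 1, and 1 contig passed without St François fish 2, St Jean fish 3, St Pierre fish 5 or Sud-Ouest fish 3, 4 or 5. In the main fit 4 of the 57 had an unadjusted p under 0.05 in limma, beside 11.7% of all contigs. For the refits no such share over all contigs is given, so their unadjusted counts cannot be compared with the array.

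Between French sites 0 of the 57 passed in limma. For the Gironde against the Dordogne, 0.403% of all contigs were called higher and 0.302% lower, together 0.706%. An unadjusted p under 0.05 was found for 6 of the 57, beside 11.4% of all contigs. For the Garonne against the Dordogne, 0% of all contigs were called. Here 4 of the 57 had an unadjusted p under 0.05, beside 6.05% of all contigs. The median differences over the 57 were -0.10 and -0.05, beside -0.02 and 0.01 over all contigs. For contig_17161 the difference of the Gironde from the Dordogne was 1.04 (adjusted p = 0.0964) and for contig_36254 it was -0.68 (adjusted p = 0.22), and neither passed in limma.

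**Figure D4:**
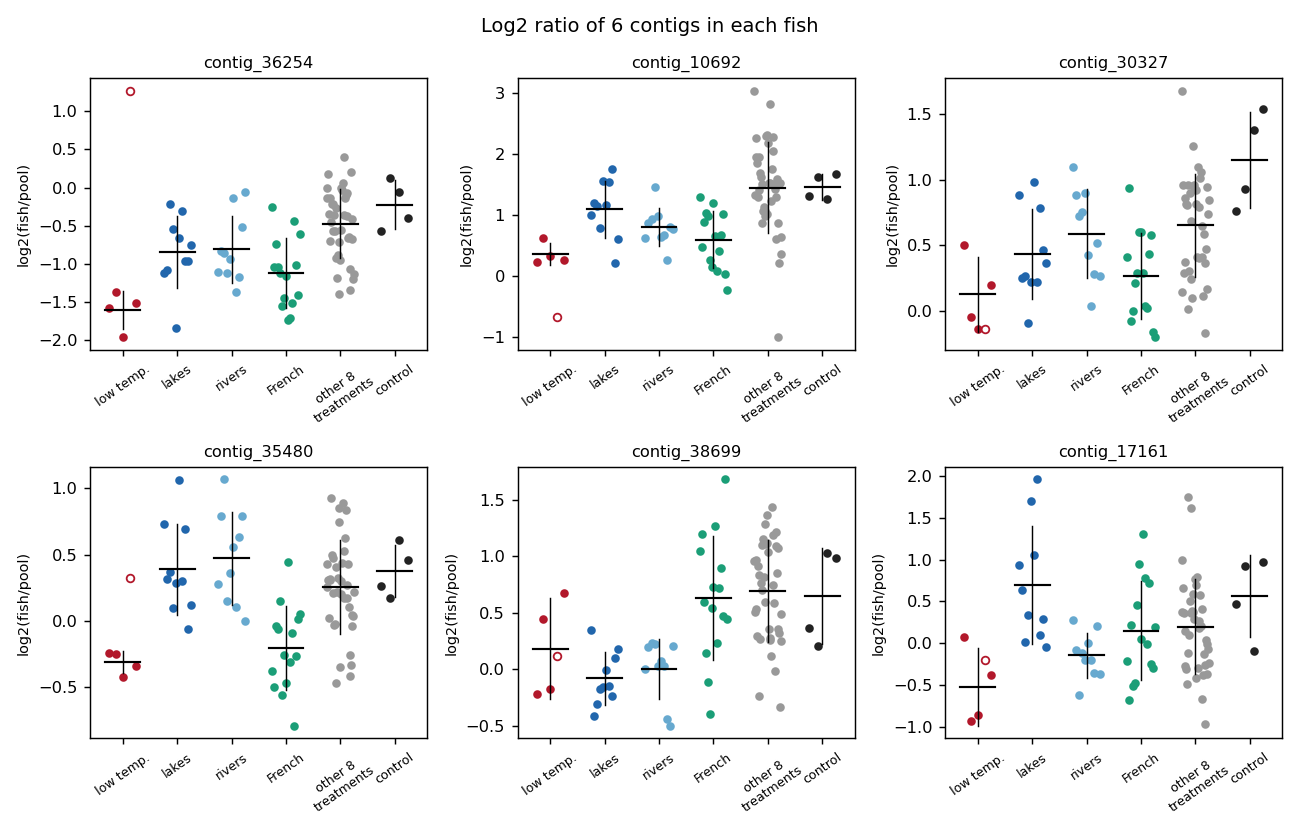
Log2 ratio of fish over pool for 6 of the contigs in each fish, with the mean (horizontal line) and SD (vertical line) of low temperature, Canadian lake, Canadian river, French, other treatment and control fish; the open circle is low temperature fish 4, outside the mean and SD. contig_36254, contig_10692 and contig_30327 have lower means in low temperature, French and Canadian fish than in the control. Their means in the other treatments are also below the control, by less. contig_35480 lies higher in Canadian than in French fish.

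The 57 contigs varied together weakly among wild fish, which the difference behind the rule did not use. Across 35 wild fish, after subtraction of each site's mean, the median pairwise correlation was 0.08 over the 1596 pairs of the 57 contigs, beside -0.00032 over the 491536 pairs of all contigs. Pairs above 0.3 made up 18.7% of the pairs of the 57 contigs and 10.3% of all pairs, and pairs below -0.3 made up 6.64% and 9.82%. Contigs measured on the same array share its labelling and normalization, so these correlations are a description. The 57 were also often detected, with both channels above background on a median of 98.8% of arrays (lowest 70.2%), beside 95.2% (lowest 20.2%) over all contigs.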

How the data were processed

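The authors deposited intensity values of 3 spots per contig, foreground and background in the fish (Cy3) and pool (Cy5) channel of 84 slides, per the file headers; these ran from 4 to 65535 and were not normalized. They also deposited log2 ratios per contig, with a median of 0 on every array. Of the 84 deposited log2 columns, 80 correlated above 0.99 with the background-subtracted ratio of the same fish; those of restricted diet fish 2 and 3 were exchanged, and those of the 2 copied fish matched no raw column. Scanner and contig assembly: not given in the sources used here.

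Background was corrected by normexp (offset 50), loess was run per array and the 3 spots were averaged, all with limma 3.58.1 (R 4.3.3). Group means (lmFit, eBayes) were fitted to every contig over 35 wild fish for comparisons of sites, 82 fish for wild against control and 46 laboratory fish (without low temperature fish 4) for low temperature. P-values were Benjamini-Hochberg adjusted over all contigs, with a threshold of 0.05. Above background means that foreground minus background, averaged over the spots, exceeded 0. Simulated data with known changes were used to test the fits. Members, tests and lists were chosen with earlier results of these data known.

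Contigs named are the 2 most negative in low temperature, the 2 with the largest deficit against control without overlap, up to 2 higher and 2 lower per test (past the threshold, every fish of the first group on 1 side of the mean of the second, above background on at least 0.8 of arrays), those at the rule's limits, and the extremes of low temperature fish 4; contig_35673 was named after its value was seen. Gene lists were not run, as no contig has a gene name. Alternatives were centring on the median in place of loess, raw foreground without subtraction, the deposited log2 ratios, scaling between arrays, fitting only the groups compared, dropping contigs below the 0.25 quantile of signal, and leaving out each fish; others were added after seeing the data. The number of arrays limits the precision.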

Additional observations from a re-analysis of the deposited data

How the results depend on the processing

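With other processing, the rule found 15 contigs in the authors' processed values, 9 of them among the 57, and 48 to 80 under the other 7 alternatives, sharing 32 (median centring) to 57 (no contigs dropped) with the 57; with low temperature fish 4 kept it found 60 as deposited (40 shared) and 55 with its sign turned (42 shared), and without any 1 of the other low temperature fish 49 to 76. For wild European eels against control, 15 contigs passed in the main fit, 5 to 17 without any 1 fish, 9 with no background subtraction and 6 after scaling between arrays; the authors' processed values gave 11 lower and 4 higher. The median difference was -0.49 in the authors' values, -0.20 with no background subtraction and -0.43 to -0.33 without any 1 fish, below 0 in all of these fits. For wild American eels 17 passed in the main fit, 6 to 18 without any 1 fish, 6 after median centring, 8 with no background subtraction (median difference -0.15) and 8 after scaling between arrays. Low temperature against control is a description only, because the low temperature fish also chose the contigs. There 23 passed in the main fit and 9 to 23 without any 1 fish. The count was 6 in the authors' values, 12 after median centring and 14 with no background subtraction. The median difference was -0.79 in the authors' values and -0.30 with no background subtraction. In the authors' values contig_3175 differed by -0.0061 (adjusted p = 0.998 in limma). American against European eels gave 14 after median centring and 2 to 5 without any 1 fish. Lakes against rivers gave 1 with no background subtraction, 1 after scaling, 0 in limma with only these sites (7 at an unadjusted p under 0.05) and 0 to 2 without any 1 fish. Between French sites the count was 0 in limma under every alternative run, with 1 to 12 of the 57 at an unadjusted p under 0.05 outside the fits that left out 1 fish. In the main fits 11.4% (Gironde), 6.05% (Garonne) and 11.7% (lakes against rivers) of all contigs had an unadjusted p under 0.05. No share over all contigs is given for the alternatives, so their unadjusted counts cannot be compared with the array. The causes of the changes between fits were not tested. Leaving out low temperature fish 4 from the shared spread, arrays with under 500 contigs above background, or Garonne fish 4 and 5, all chosen after seeing the data, left 15 for wild European eels. Slide as a block could not be fitted, as each slide held 1 array. No paired analysis was possible because the titles give fish identifiers and no shared replicate numbers.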
